A study of Mus musculus with 4 samples.

Results

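The genes described here encode the aminoacyl-tRNA synthetases, the enzymes that load each tRNA with its amino acid, and a pair of proteins that hold several of them together. They are 38 of the 41388 genes in the count tables, chosen by symbol and matched through GENCODE release M21. Of these, 20 encode cytosolic enzymes, 16 encode mitochondrial enzymes (symbols ending in 2) and 2, Aimp1 and Aimp2, encode scaffold proteins. All 38 were found and all passed the filter on low counts, which kept 13838 genes.

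Animal cells translate in the cytosol and in mitochondria, and most amino acids have a separate nuclear-encoded synthetase for each compartment. Gars and Kars are the known exceptions in which a single gene supplies both, and they are counted here with the cytosolic genes. Mitochondria use no glutaminyl-tRNA synthetase of their own: EARS2 charges that tRNA with glutamate and an amidotransferase then converts it. Several cytosolic enzymes sit in the multi-tRNA synthetase complex on the AIMP scaffold. Many cytosolic synthetase genes are known targets of ATF4, the transcription factor of the amino acid response.

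Gene expression was measured by RNA-seq of total RNA, depleted of ribosomal RNA, from Mnk3, a mouse line used as a model of ILC3, the innate lymphoid cells known for making IL-22. Stimulated cells (2 libraries) received IL-1b plus IL-23, 10 ng/ml of each cytokine, over roughly 16 h, and control cells (2 libraries) were left untreated, so that both groups rest on 1 cell line. Stimulated 1 and control 1 are the libraries titled rep1, and stimulated 2 and control 2 have titles with no number. Whether replicates are separate cultures is not stated, and p-values then reflect no more than how far these libraries differ, in part perhaps for technical reasons. Levels are CPM scaled by TMM, or RPKM (that CPM per kilobase of the listed exon length) where genes are compared with each other. Changes are given on the log2 scale, stimulated over control, ± SE, and a gene is said to have risen or fallen only where its edgeR quasi-likelihood adjusted p, taken over all tested genes, was under 0.05.

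Summed counts ranged from 23047723 to 26723058 in stimulated libraries and from 28516816 to 29078765 in controls. Libraries of a group differed beyond counting error, with a chi-square per degree of freedom of 38.5 for the stimulated pair and 64.4 for the controls. Ribosomal protein genes took 1.41% to 1.602% of the counts in stimulated libraries and 0.750% to 0.985% in controls, and the part of this shift in the results was not tested. All 9 ILC3 markers of the list had counts in every library. Of these, Il22, Il17f and Id2 rose, Il1r1, Kit and Il23r fell, and Il7r, Thy1 and Ahr did not pass. The T cell markers summed to 12.0 to 16.0 CPM in stimulated libraries and 19.6 to 24.0 CPM in controls. Cd3d was the highest of them in all libraries, and Trac fell (-4.33 ± 0.51, edgeR adjusted p = 0.00151). The myeloid list reached 9.37 CPM in stimulated 2 through Adgre1, which rose, and 2.22 CPM or less in the other libraries, with Lyz2 at 0 counts. The B cell, stromal, erythroid and epithelial lists each summed to at most 1.63 CPM in any library. In bulk RNA, a change of level within cells and a change in the share of cells that express a gene cannot be told apart.

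Cytosolic synthetase transcripts rose almost as a block after IL-1b and IL-23. Of 20 tested genes 19 rose, none fell and 1, Qars, did not pass, where 17.5% of all tested genes rose and 18.3% fell. The median change was 0.97, against -0.02 over all tested genes, and the 19 changes lay between 0.52 and 1.52. Both stimulated libraries stood above both controls for the same 19 genes. The share of all tested genes with that arrangement was 34.4%. Summed over the 20 genes, the level was 6428 and 5815 CPM in stimulated libraries 1 and 2, against 3245 and 3265 CPM in controls 1 and 2, a ratio of means of 1.88.

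**Figure D1:**
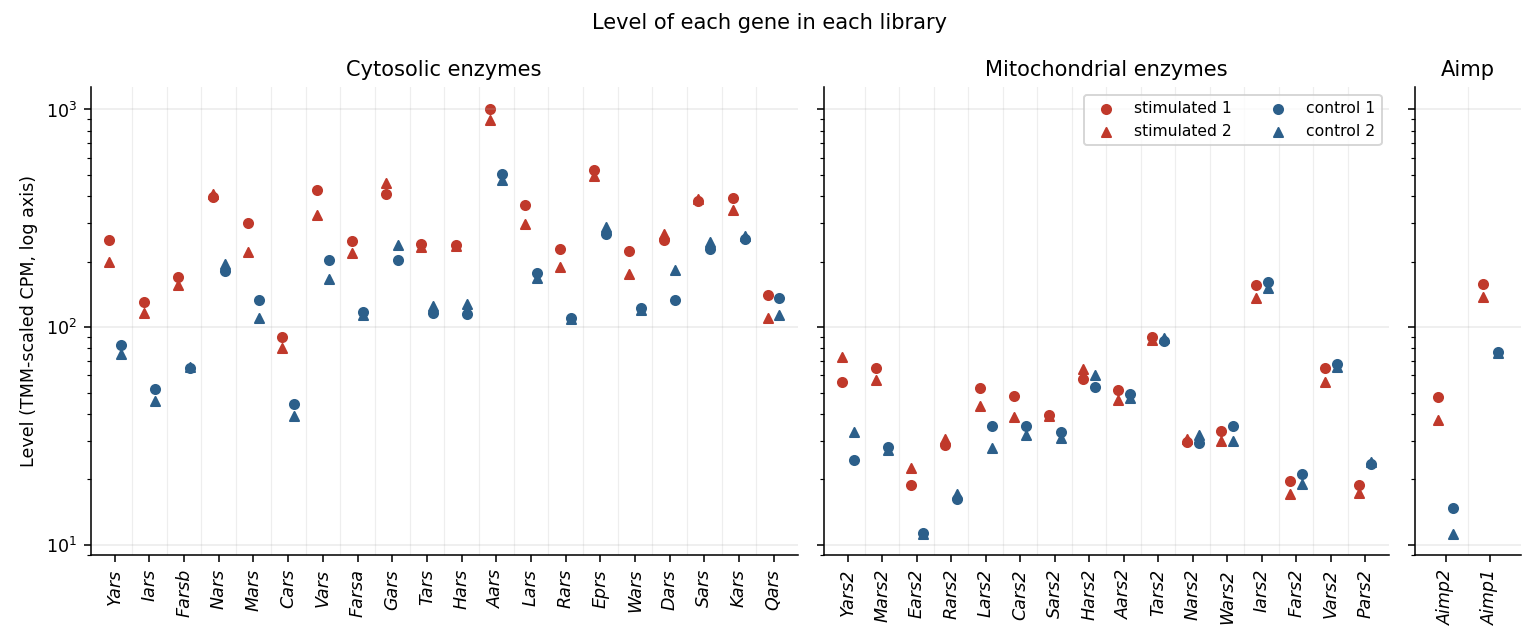
The level of each of the 38 genes in each library, as TMM-scaled CPM on a log axis, with stimulated libraries in red and controls in blue (circles for library 1, triangles for library 2). Red symbols stand above blue ones for 19 of 20 cytosolic genes, 7 of 16 mitochondrial genes and both Aimp genes, and below them for 2 mitochondrial genes, Vars2 and Pars2.

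Yars, the tyrosyl-tRNA synthetase, had the steepest rise among the cytosolic enzymes. It stood at 251 and 200 CPM in stimulated libraries 1 and 2, against 82.4 and 74.9 CPM in controls 1 and 2. That is a log2 change of 1.52 ± 0.16, or 2.87-fold (edgeR adjusted p = 0.00103). The lower stimulated library was still well above the higher control.

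Next came Iars, which charges isoleucine, and Farsb, the beta subunit of the phenylalanine enzyme. Iars had 130 and 116 CPM in stimulated libraries, against 51.9 and 45.9 CPM in controls (1.33 ± 0.14, edgeR adjusted p = 0.00104). Farsb had 169 and 156 CPM in stimulated libraries, against 64.8 and 65.6 CPM in controls (1.32 ± 0.13, edgeR adjusted p = 0.000815). In both genes the replicates lay close together and the groups were far apart.

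The partner of Farsb in the phenylalanine enzyme, Farsa, which encodes the alpha subunit, had 250 and 218 CPM in stimulated libraries, against 117 and 114 CPM in controls (1.02 ± 0.14, edgeR adjusted p = 0.00245). Per kilobase the subunit genes stood near each other, Farsb at 62.1 ± 3.61 RPKM and Farsa at 51.6 ± 4.96 RPKM in stimulated cells, and at 24.9 ± 0.202 and 25.4 ± 0.449 RPKM in controls (SD, n = 2 each). Nars, the asparaginyl-tRNA synthetase, had 397 and 408 CPM in stimulated libraries, against 180 and 194 CPM in controls (1.10 ± 0.14, edgeR adjusted p = 0.00174). For Farsa and Nars too, the groups did not overlap.

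A cluster of changes near 1 on the log2 scale took in most of the other cytosolic enzymes. Mars, the methionyl enzyme that also charges the initiator tRNA, changed by 1.10 ± 0.19 and Cars, the cysteinyl enzyme, by 1.03 ± 0.15. Vars, the valyl enzyme that binds the elongation factor eEF1, changed by 1.03 ± 0.19. Tars (threonine) changed by 0.97 ± 0.14, Hars (histidine) by 0.96 ± 0.14, Aars (alanine) by 0.96 ± 0.15, Lars (leucine) by 0.94 ± 0.16, Rars (arginine) by 0.93 ± 0.15 and Eprs, which encodes a fused glutamyl and prolyl enzyme, by 0.88 ± 0.14. Their edgeR adjusted p-values ran from 0.00246 to 0.00674. Given their errors, these changes lie close together. Aars had the highest CPM of all the genes described here, 1009.6 and 892 in stimulated libraries, against 502 and 475 in controls.

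The smaller rises were those of Wars, Dars, Sars and Kars. Wars, the tryptophanyl enzyme and a known interferon-induced gene, had 224 and 176 CPM in stimulated libraries, against 123 and 120 CPM in controls (0.72 ± 0.16, edgeR adjusted p = 0.0138). Dars (aspartate) changed by 0.71 ± 0.18 with controls that lay apart, at 252 and 268 CPM in stimulated libraries, against 134 and 183 CPM in controls 1 and 2 (edgeR adjusted p = 0.0226). Sars, which charges serine tRNA and the tRNA on which selenocysteine is built, changed by 0.71 ± 0.14 (edgeR adjusted p = 0.00855). In each of these genes both stimulated libraries stood above both controls.

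The genes that supply both compartments moved by unequal amounts. Gars, the glycyl enzyme, had 411 and 457 CPM in stimulated libraries, against 204 and 238 CPM in controls (0.97 ± 0.15, edgeR adjusted p = 0.00396). Kars, the lysyl enzyme, had 394 and 346 CPM in stimulated libraries, against 254 and 261 CPM in controls (0.52 ± 0.14, edgeR adjusted p = 0.0295). Kars thus had the smallest change among the cytosolic genes that rose. Its call ended without control 1 (edgeR adjusted p = 0.0972), control 2 (0.0774) or stimulated 1 (0.164), where the change was 0.50, 0.54 and 0.43. The calls of Dars (0.0857 without control 1 and 0.0519 without stimulated 2) and Wars (0.0744 without stimulated 1) also ended in edgeR fits with 1 library left out.

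Qars, the glutaminyl-tRNA synthetase, was the cytosolic gene that did not pass. It had 140 and 110 CPM in stimulated libraries, against 136 and 114 CPM in controls, a change of 0.00 ± 0.17 (edgeR adjusted p = 0.995). The values of the groups overlapped fully, and the gap between the 2 stimulated libraries was wider than any gap between the groups. Its sign turned with DESeq2 size factors, to 0.0182.

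**Figure D2:**
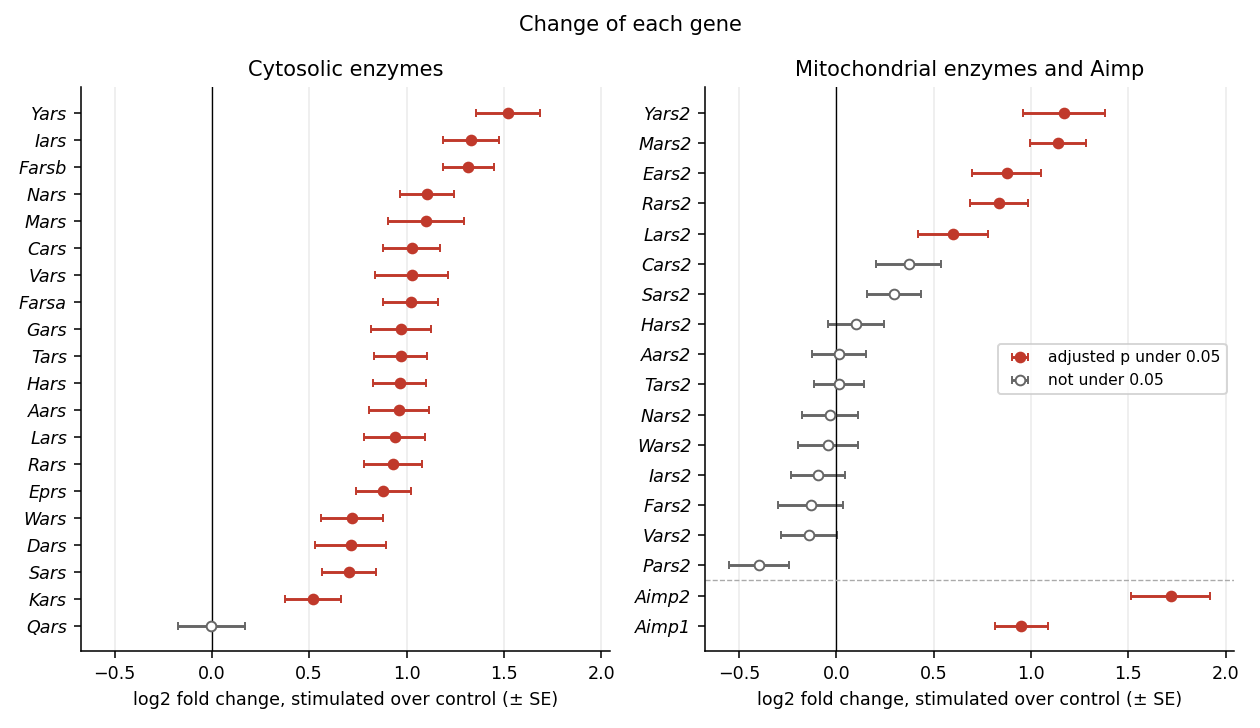
The log2 fold change ± SE, stimulated over control, for each gene, from the edgeR fit over all tested genes, with filled red symbols for an adjusted p under 0.05. The cytosolic enzymes other than Qars lie between 0.52 and 1.52, and the mitochondrial enzymes spread from -0.40 to 1.17 with 5 filled symbols.

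Promoter sequences were read for the cytosolic genes because these genes moved together. RefSeq promoters of build GRCm38.p6, 250 bases before to 50 after the start site, were given for 28 of the 38 genes, of which 12 were cytosolic (12 promoters), 14 mitochondrial (15 promoters) and 2 Aimp genes (3 promoters). They were searched on both strands for TGATGNAA, the core of the C/EBP-ATF element that ATF4 is known to bind, and for CACGTG, the E-box bound by MYC and other factors. The ATF core was found in 5 of 12 cytosolic promoters (41.7%), in 0 of 15 mitochondrial promoters and in 0 of 3 Aimp promoters. Over the promoters of all tested genes its share was 2.22%, and over all 32851 promoters it was 3.97%. The promoters that hold it, those of Yars, Iars, Tars, Aars and Gars, are printed 5′ to 3′, with both kinds of match in capitals (TTNCATCA is the ATF core read from the other strand):
Yars promoter, chr4:129189653-129189952, plus strand: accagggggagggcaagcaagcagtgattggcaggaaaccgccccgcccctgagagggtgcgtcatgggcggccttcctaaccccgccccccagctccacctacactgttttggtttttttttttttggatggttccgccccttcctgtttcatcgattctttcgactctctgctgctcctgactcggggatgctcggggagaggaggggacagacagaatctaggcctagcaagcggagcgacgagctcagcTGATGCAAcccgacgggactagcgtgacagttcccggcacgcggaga
Iars promoter, chr13:49681880-49682179, plus strand: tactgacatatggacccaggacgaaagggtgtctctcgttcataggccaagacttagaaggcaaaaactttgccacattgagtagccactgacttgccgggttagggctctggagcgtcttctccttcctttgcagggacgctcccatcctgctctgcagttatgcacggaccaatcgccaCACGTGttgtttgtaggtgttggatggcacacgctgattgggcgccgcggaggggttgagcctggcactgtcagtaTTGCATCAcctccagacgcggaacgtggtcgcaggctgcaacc
Tars promoter, chr15:11399609-11399908, minus strand: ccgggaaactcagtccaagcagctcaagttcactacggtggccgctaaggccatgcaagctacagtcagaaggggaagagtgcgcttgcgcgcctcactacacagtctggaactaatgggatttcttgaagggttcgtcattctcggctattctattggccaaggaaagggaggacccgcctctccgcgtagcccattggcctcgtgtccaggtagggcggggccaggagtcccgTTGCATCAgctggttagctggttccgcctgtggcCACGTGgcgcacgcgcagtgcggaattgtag
Aars promoter, chr8:111033592-111033891, plus strand: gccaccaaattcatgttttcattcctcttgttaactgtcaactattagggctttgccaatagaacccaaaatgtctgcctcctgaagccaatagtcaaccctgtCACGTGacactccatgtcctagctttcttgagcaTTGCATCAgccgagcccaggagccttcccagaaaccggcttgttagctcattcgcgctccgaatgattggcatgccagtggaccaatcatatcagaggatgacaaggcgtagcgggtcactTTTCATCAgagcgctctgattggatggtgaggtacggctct
Gars promoter, chr6:55037751-55038050, plus strand: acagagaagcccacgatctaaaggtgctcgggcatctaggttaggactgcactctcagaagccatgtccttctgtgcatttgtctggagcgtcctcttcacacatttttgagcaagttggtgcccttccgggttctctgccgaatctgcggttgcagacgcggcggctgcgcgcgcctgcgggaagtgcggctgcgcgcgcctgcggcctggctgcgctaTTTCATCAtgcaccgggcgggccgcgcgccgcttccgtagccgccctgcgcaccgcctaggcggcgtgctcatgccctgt

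Their ATF core began 30 bases before the start site in Gars, 15 before it in Tars, and 112 before it in Aars, which had a second match just inside the transcribed part. In Yars and Iars it lay just inside the transcribed part. These genes changed by 1.52 (Yars), 1.33 (Iars), 0.97 (Tars), 0.96 (Aars) and 0.97 (Gars). Positions are counted from the RefSeq start site. The Aars window, from 111033592, lies wholly inside that gene as listed with the counts, which starts at 111033144. The E-box was found in 4 of 12 cytosolic promoters (33.3%), those of Aars, Farsb, Iars and Tars, and in 1 of 15 mitochondrial ones (6.67%), that of Ears2. Its share was 9.70% over promoters of tested genes and 7.15% over all promoters. No E-box overlapped an ATF core in these promoters. A match of letters is a description and not a binding site, and the share of genes with a promoter in the table differs between the classes. Lack of the ATF core was not confined to genes without a rise. Of the cytosolic promoters without it, all but that of Qars belong to genes that rose. Farsb, for example, rose by 1.32 and its window held an E-box but no ATF core. Also printed are 2 chosen windows in which neither motif occurs. They are those of Qars, the cytosolic gene without a rise, and Iars2, the mitochondrial counterpart of Iars:
Qars promoter, chr9:108507755-108508054, plus strand: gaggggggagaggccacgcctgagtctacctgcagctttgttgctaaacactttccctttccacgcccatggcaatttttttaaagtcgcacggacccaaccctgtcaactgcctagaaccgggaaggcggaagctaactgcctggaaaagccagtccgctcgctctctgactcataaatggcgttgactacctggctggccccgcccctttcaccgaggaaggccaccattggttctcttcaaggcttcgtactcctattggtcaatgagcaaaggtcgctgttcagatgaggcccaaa
Iars2 promoter, chr1:185329352-185329651, minus strand: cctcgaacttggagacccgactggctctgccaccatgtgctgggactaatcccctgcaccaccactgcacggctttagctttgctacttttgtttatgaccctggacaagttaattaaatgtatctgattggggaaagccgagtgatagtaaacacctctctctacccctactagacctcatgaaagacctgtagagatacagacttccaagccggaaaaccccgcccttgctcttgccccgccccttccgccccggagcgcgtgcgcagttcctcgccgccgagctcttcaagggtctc

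Mitochondrial synthetase transcripts split into a small set that rose and a larger set with little change. Of 16 tested genes 5 rose, none fell and 11 did not pass, where 17.5% of all tested genes rose and 18.3% fell. The median change was 0.06, and the range ran from -0.40 to 1.17. Both stimulated libraries stood above both controls for 7 genes and below them for 2, where the shares over all tested genes were 34.4% and 36.3%. The summed level was 829 and 789 CPM in stimulated libraries, against 710 and 698 CPM in controls, a ratio of means of 1.15.

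The genes that rose were Yars2, Mars2, Ears2, Rars2 and Lars2. Yars2, the tyrosyl enzyme of mitochondria, had 55.7 and 73.1 CPM in stimulated libraries, against 24.4 and 32.9 CPM in controls (1.17 ± 0.21, edgeR adjusted p = 0.00636). Mars2, the methionyl enzyme, had 65.1 and 56.8 CPM in stimulated libraries, against 28.1 and 27.3 CPM in controls (1.14 ± 0.15, edgeR adjusted p = 0.00186). These changes were of the size seen in the cytosolic class.

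Ears2, the glutamyl enzyme that also begins mitochondrial glutaminyl-tRNA, had 18.8 and 22.5 CPM in stimulated libraries, against 11.3 and 11.2 CPM in controls (0.87 ± 0.18, edgeR adjusted p = 0.00978). Rars2 (arginine) had 28.7 and 30.7 CPM in stimulated libraries, against 16.3 and 17.0 CPM in controls (0.84 ± 0.15, edgeR adjusted p = 0.00613). Lars2 (leucine) had 52.3 and 43.2 CPM in stimulated libraries, against 35.1 and 27.9 CPM in controls (0.60 ± 0.18, edgeR adjusted p = 0.0386). Groups did not overlap in any of the 5, an arrangement with stimulated libraries above that 34.4% of all tested genes had. The call of Ears2 ended without stimulated 2 (edgeR adjusted p = 0.0511), and that of Lars2 without control 2 (0.154) or stimulated 1 (0.195) and with upper quartile (0.0595) or total-count scaling (0.0713). All 5 are enzymes of class I, 1 of the structural classes into which synthetases fall, of which the mitochondrial list holds 9 genes. None of its 7 class II genes passed, and their changes ran from -0.40 to 0.29. In the cytosolic list 8 of 9 class I genes and 10 of 10 class II genes rose, with Eprs, which joins both classes, left out. Over all 13838 tested genes 17.5% rose and 8888 did not pass.

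Most mitochondrial genes that did not pass had changes close to 0. Tars2 (threonine) had 90.3 and 87.3 CPM in stimulated libraries, against 86.6 and 89.4 CPM in controls (0.01 ± 0.13, edgeR adjusted p = 0.948). Aars2 (alanine) had 51.3 and 46.4 CPM in stimulated libraries, against 49.4 and 47.4 CPM in controls (0.01 ± 0.14, edgeR adjusted p = 0.951). In both the groups overlapped, and the sign turned under upper quartile and total-count scaling.

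The lowest change was that of Pars2 (proline), with 18.9 and 17.2 CPM in stimulated libraries, against 23.5 and 24.0 CPM in controls (-0.40 ± 0.15, edgeR adjusted p = 0.0871). With total-count scaling it passed (edgeR adjusted p = 0.044), where the median change of all genes lay at -0.11. The other members had changes of 0.37 (Cars2), 0.29 (Sars2), 0.10 (Hars2), -0.03 (Nars2), -0.04 (Wars2), -0.09 (Iars2), -0.13 (Fars2) and -0.14 (Vars2), with SE from 0.14 to 0.17. A p that misses the threshold does not show that these levels were equal in both groups.

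The enzymes of an amino acid were then compared across compartments within each library, as the ratio of cytosolic to mitochondrial RPKM. Of 16 such pairs, 12 had higher ratios in both stimulated libraries than in both controls, 4 overlapped and none was lower. Of single tested genes, 34.4% had both stimulated libraries above both controls, and no such share was taken over other gene pairs. The ratios reuse the counts behind the class results above and are not separate evidence. With 2 libraries against 2, an exact permutation test cannot pass, so the ratios are given without one. The difference between the median changes of the classes, cytosolic minus mitochondrial, was 0.91 on the log2 scale. A ratio within a library does not depend on library scaling.

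The isoleucine pair shifted most. The Iars to Iars2 ratio was 1.41 and 1.44 in stimulated libraries 1 and 2, against 0.544 and 0.514 in controls 1 and 2. Per kilobase, Iars2 was thus above Iars in control cells, and Iars was above Iars2 in stimulated cells. That order rests on the listed lengths, 5272 bases for Iars and 8885 for Iars2. In CPM, Iars2 was above Iars in all libraries. Eprs over Pars2 stood at 17.9 and 18.4 in stimulated libraries, against 7.28 and 7.65 in controls.

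Nars over Nars2 stood at 21.6 and 21.3 in stimulated libraries, against 9.80 and 9.73 in controls. Replicates of each group nearly coincided in this pair. Vars over Vars2 was 6.42 and 5.72 in stimulated libraries, against 2.94 and 2.49 in controls. Cars stayed below Cars2 per kilobase in all libraries, with ratios of 0.743 and 0.831 in stimulated cells, against 0.503 and 0.490 in controls. Their listed lengths are 4639 and 1846 bases, and in CPM Cars was above Cars2 in all libraries. Apart from Cars in all libraries and Iars in controls, the cytosolic genes of these pairs were above their mitochondrial counterparts per kilobase in every library.

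In the pairs that overlapped, the mitochondrial gene had risen too. Mars over Mars2 was 15.2 and 12.9 in stimulated libraries, against 15.7 and 13.3 in controls. Eprs over Ears2 was 29.8 and 23.4 in stimulated libraries, against 25.1 and 27.4 in controls. The remaining overlapping pairs were those of arginine and tyrosine. Lars over Lars2 did not overlap although both genes rose, at 7.02 and 6.93 in stimulated libraries, against 5.07 and 6.08 in controls.

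**Figure D3:**
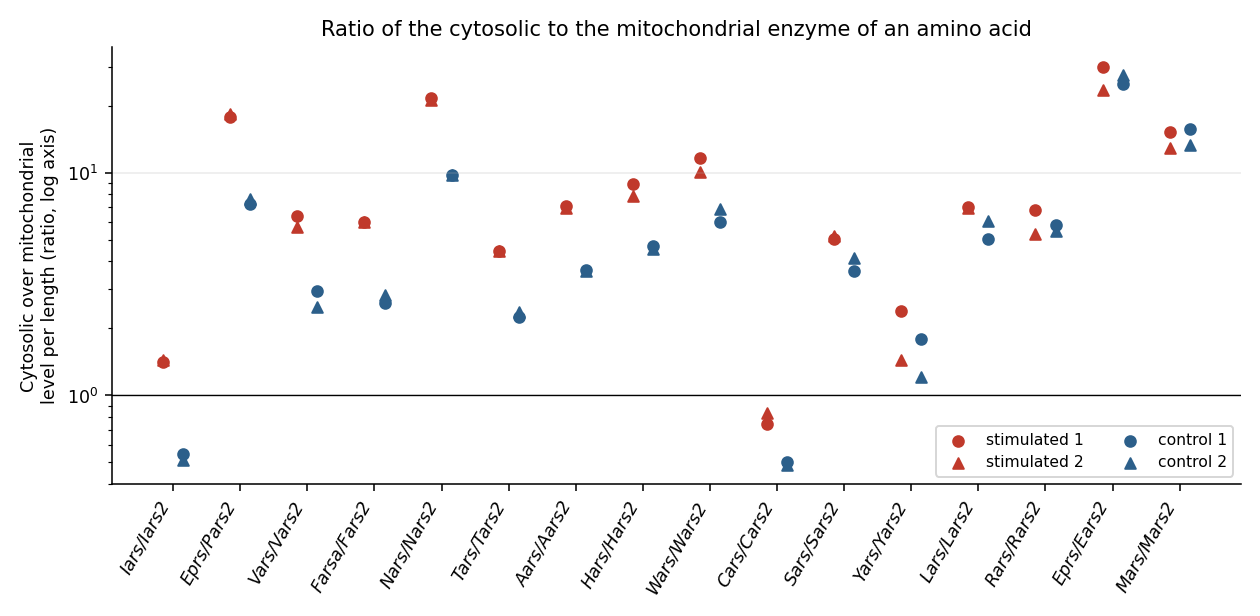
The ratio of cytosolic to mitochondrial RPKM for 16 pairs of enzymes in each library, on a log axis, ordered by the difference of their log2 changes, with stimulated libraries in red and controls in blue. Red lies above blue from Iars/Iars2 (1.41 and 1.44, against 0.544 and 0.514) to Sars/Sars2 and in Lars/Lars2, and the groups overlap for Yars/Yars2, Rars/Rars2, Eprs/Ears2 and Mars/Mars2.

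Per kilobase the cytosolic enzymes were the more abundant class. Their median was 71.9 RPKM in stimulated cells and 36.0 RPKM in controls, and that of the mitochondrial enzymes was 11.7 RPKM in stimulated cells and 9.26 RPKM in controls. In stimulated cells the order was led by Gars at 182 ± 13.8 RPKM, Kars at 165 ± 14.96 RPKM and Nars at 153 ± 2.75 RPKM (SD, n = 2 each), and neighbours in this order overlapped. In controls Kars led at 115 ± 2.02 RPKM, ahead of Gars at 92.5 ± 10.0 RPKM and Nars at 71.2 ± 3.75 RPKM, without overlap. Ears2 was the lowest of the 38 genes in both groups, at 4.01 ± 0.496 RPKM in stimulated cells and 2.19 ± 0.0244 RPKM in controls. Across the 20 cytosolic genes, control level and change had a Spearman rho of -0.417, a description of genes that share libraries, and the control counts enter both measures. Listed lengths join all annotated exons, so a gene whose transcripts use only part of that length comes out low per kilobase. Mars2 had the longest listed length of the 38 genes, 11294 bases, and how much of it is used was not measured.

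The scaffold genes rose with the enzymes they bind. Aimp2, which is needed to hold the complex together, had 47.8 and 37.5 CPM in stimulated libraries, against 14.7 and 11.2 CPM in controls, the largest change of the 38 genes (1.72 ± 0.20, 3.29-fold, edgeR adjusted p = 0.00142). Aimp1, a scaffold that is also known as the precursor of a secreted cytokine, had 157 and 138 CPM in stimulated libraries, against 77.0 and 75.6 CPM in controls (0.95 ± 0.14, edgeR adjusted p = 0.00283). Both stimulated libraries stood above both controls in each. Aimp2 shares 29.4% of its exon bases with Eif2ak1 on the opposite strand. No source used here says whether counting used strand, so reads of that stretch cannot be told apart, and Eif2ak1 itself had 0.21 ± 0.13 (edgeR adjusted p = 0.258).

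The third scaffold of the complex, Eef1e1 (also called AIMP3), is outside the 38 genes. It had 58.4 and 55.2 CPM in stimulated libraries, against 11.3 and 11.1 CPM in controls (2.34 ± 0.15, edgeR adjusted p = 0.000239). Within the complex 10 of 11 tested genes rose, Qars being the other, with a median change of 0.94, where 17.5% of all tested genes rose. Among the cytosolic synthetases, 7 of 8 in the complex rose (median 0.905) and 12 of 12 outside it rose (median 0.997).

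Other members share exon bases with a neighbour, always on the opposite strand, and 13 of the 38 genes do. Hars and Hars2 lie head to head on chromosome 18, Hars from 36766530 to 36783205 on the minus strand and Hars2 from 36783008 to 36792562 on the plus strand in the coordinates of the count tables. They share 195 exon bases, 9.81% of Hars and 4.56% of Hars2. Iars2 shares 22.7% of its exon bases with Rab3gap2 and Cars2 20.5% with Naxd. Mars shares 1.99% with Ddit3.

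Genes that act beside the synthetases were counted from lists of textbook members, to be read against the 17.5% of all tested genes that rose and the 18.3% that fell. Of 6 tested genes of cytosolic tRNA export and delivery all 6 rose (median 0.94), against 17.5% of all tested genes. Xpot, the tRNA exporter, had 157 and 139 CPM in stimulated libraries, against 60.2 and 64.3 CPM in controls (1.25 ± 0.14, edgeR adjusted p = 0.00113). Eef1d and Eef1g, subunits of the elongation factor complex that receives charged tRNA, changed by 1.30 ± 0.15 and 0.99 ± 0.15.

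Accessory genes of tRNA charging gave 4 higher and 9 not passed of 13 tested, with Eef1e1 counted here too (median 0.48), where 17.5% of all tested genes were higher. Qrsl1, a subunit of the mitochondrial amidotransferase that completes the product of EARS2, had 36.5 and 35.9 CPM in stimulated libraries, against 14.7 and 15.4 CPM in controls (1.27 ± 0.15, edgeR adjusted p = 0.00126). The other subunits, Gatb and Gatc, had 0.25 ± 0.14 and 0.21 ± 0.24 and did not pass. Trnt1, which adds the CCA end of tRNA, rose by 0.74 ± 0.14. Ptrh2, a peptidyl-tRNA hydrolase, had 67.5 and 68.0 CPM in stimulated libraries, against 59.96 and 58.5 CPM in controls (0.19 ± 0.13, edgeR adjusted p = 0.288).

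Mitochondrial translation factors gave 4 higher and 6 not passed of 10 tested, with a median of 0.53, where 17.5% of all tested genes were higher. The elongation factors Tufm, Gfm1 and Tsfm changed by 1.04 ± 0.18, 1.01 ± 0.13 and 0.67 ± 0.13. The initiation factor Mtif2 had 0.09 ± 0.14 (edgeR adjusted p = 0.652).

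Regulators known to act on synthetase genes, with some of their other targets, gave 7 higher, 2 lower and 6 not passed of 15 tested (median 0.44). Over all tested genes 17.5% were higher and 18.3% lower. Atf4 had 850 and 798 CPM in stimulated libraries, against 271 and 268 CPM in controls (1.61 ± 0.15, edgeR adjusted p = 0.000631). The ATF4 targets Trib3, a pseudokinase, and Asns, the asparagine synthetase, changed by 2.28 ± 0.27 and 1.14 ± 0.16. Sesn2, also a known target, had -0.26 ± 0.15 and did not pass. Myc, whose product binds the E-box, rose as well (1.58 ± 0.23, edgeR adjusted p = 0.00311). Mycn and Max, from the same list, had -0.47 ± 0.28 and 0.24 ± 0.15 and did not pass. Whether ATF4 or MYC acted on the synthetase genes was not tested. The genes that fell were Eif2ak3, which encodes the kinase PERK (-0.44 ± 0.13), and the coactivator gene Ppargc1a (-1.91 ± 0.32). Eif2ak2, which encodes the kinase PKR, had 0.44 ± 0.17 (edgeR adjusted p = 0.0843), and it passed with no low-count filter (edgeR adjusted p = 0.0332). Transcript levels do not give the amount or activity of these factors.

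**Figure D4:**
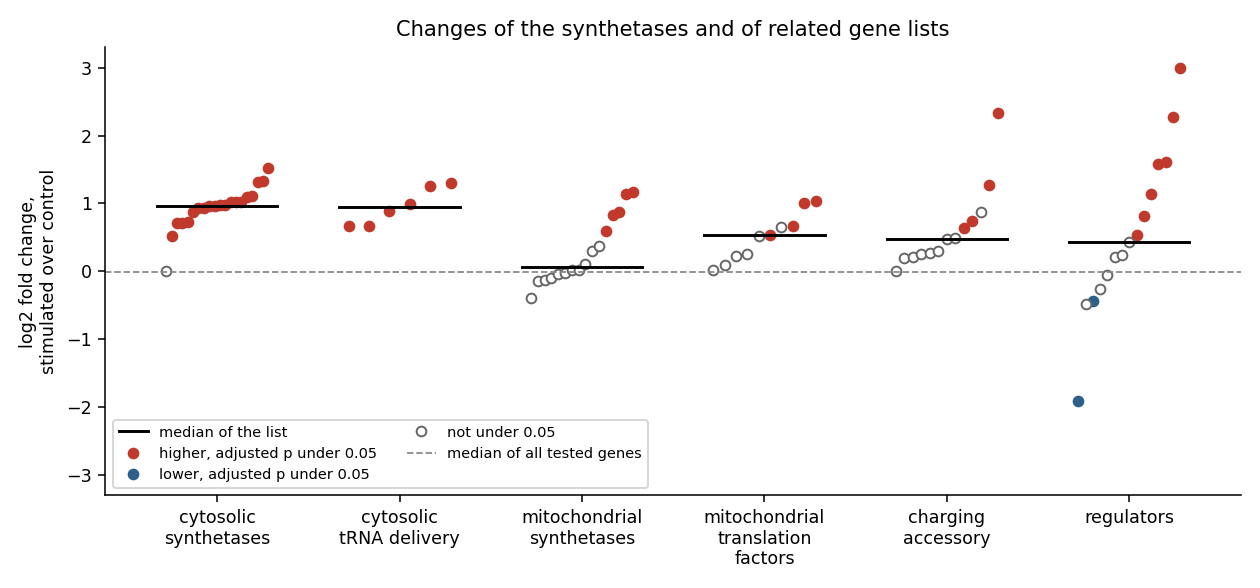
Log2 fold changes, stimulated over control, for the tested genes of 6 lists, with the median of each list as a black bar and the median of all tested genes as a dashed line. The cytosolic synthetases (median 0.97) and tRNA delivery genes (0.94) lie mostly above 0.5, and the mitochondrial synthetases (0.06) spread around the dashed line with 5 higher genes.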

How the data were processed

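RNA was made with a Qiagen kit and depleted of ribosomal RNA, per the labels' protocols. The submitters' processing notes list STAR, Subread and featureCounts, and their versions, the build and the annotation are not given here. Deposited counts are raw whole numbers for each gene, per the file headers. The CPM and RPKM deposited by the authors were recomputed from these counts and the listed lengths to within rounding and were not used further.

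Of 41388 identifiers, 40340 matched GENCODE M21, 76.0% with the same start and end. Stimulated libraries were compared with controls by edgeR 4.0.16 in R 4.3.3 (quasi-likelihood, robust, TMM, filterByExpr) with Benjamini-Hochberg adjustment over 13838 genes at 0.05. The SE is the absolute change over the square root of F. The fit was tested on simulated data. It recovered 13.4% of changes set at 1.5-fold, 67.2% at 2-fold and 98.5% at 4-fold, with 1 false call. A change of 1.5-fold thus often did not pass in the simulation. It changed 67, 67 and 66 genes at these sizes, where 2417 genes rose and 2533 fell in the data. With fewer changed genes the adjustment is stricter, so these shares need not hold for the data. Depth was 23047723 to 29078765 counts per library, and the common biological coefficient of variation was 18.4%. Alternatives were other scalings, filters, tools and thresholds, a replicate block and each library left out.

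Members, lists and the naming rule were chosen with earlier results of these data known. Every member is named. Values by library are given for the 5 smallest and 2 largest adjusted p of each enzyme class, both Aimp genes, and Wars, Gars and Kars, and for others where a sentence turns on them, chosen after their values were seen. Other lists contributed their 3 genes of smallest adjusted p and their most abundant gene that did not pass. A few more are given beside a member or a regulator, chosen after their values were seen. The remaining genes of those lists are given only as counts, and some genes are not reported here.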

Additional observations from a re-analysis of the deposited data

How the results depend on the processing

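The cytosolic counts of 19 higher and 0 lower held under all scalings, filters and tools tried (DESeq2 1.42.0 and limma-voom from limma 3.58.1 among them). With an adjusted p under 0.01 they were 16 and 0, and with 1 library left out 17 to 18 and 0, where a lone library is assumed to vary like the other group. Mitochondrial genes gave 4 to 5 higher in the same alternatives. With total-count scaling 1 mitochondrial gene, Pars2, was lower. Over all genes, an adjusted p under 0.01 left 1244 higher and 1324 lower, against 2417 and 2533. Leaving out 1 library gave 1593 to 2001 higher and 1665 to 2035 lower. Higher calls made up 48.8% of all calls, and 40.9% with total-count scaling. The difference of class medians was 0.91, and 0.780 to 0.991 with 1 library left out.

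The sign of some changes near 0 turned. Qars had 0.0182 with DESeq2 size factors, 0.0182 in DESeq2 and 0.000628 with no low-count filter. Aars2 had -0.039 with upper quartile and -0.079 with total-count scaling, and Tars2 had -0.038 and -0.078 there. With 1 library left out the changes ran from -0.19 to 0.19 for Qars, -0.059 to 0.11 for Aars2, -0.011 to 0.064 for Tars2, -0.15 to 0.070 for Wars2, -0.091 to 0.028 for Nars2, -0.19 to 0.023 for Iars2 and -0.023 to 0.22 for Mtif2. The cause was not tested.

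The labels state no pairing, and with 2 numbers per group the data cannot settle it. Deviations of same-numbered libraries had a correlation of 0.551 across genes. With a replicate block 3986 genes were higher and 4000 lower, among them 19 cytosolic and 7 mitochondrial genes higher and 1 mitochondrial gene lower (Cars2 and Sars2 joined the higher genes, and Pars2 was the lower one). Eif2ak2 also passed there. A block over 4 libraries leaves 1 residual degree of freedom, so its p-values lean on spread borrowed across genes.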
